A study of Sus scrofa with 12 samples.

Results

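Interleukin and tumour necrosis factor (TNF) family ligands and receptors were followed in porcine aortic valvular interstitial cells (VICs), the fibroblast-like cells of the heart valve leaflet. The members were the array probe sets with a single annotated gene symbol that begins with IL and a digit, TNFRSF or TNFSF, leaving out IL6, IL1B and the ILF names, and with a log2 value over 4 in at least 3 of the 12 arrays. This gave 30 probe sets of 24 genes among 17638 probe sets that passed the same filter. They comprised 15 probe sets of 11 ligand genes, 14 of 12 receptor genes, and 1 of IL18BP, a secreted protein that binds IL18. Before the filter 44 probe sets of 37 genes carried a matching symbol.

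The study compared 4 groups of 3 Affymetrix arrays, all from cells of adult pigs released from the valve with collagenase II. One group of P2 cells, after 2 passages, was kept without added cytokine on the culture plastic labelled TCPS. Further P2 groups received porcine transforming growth factor beta 1 (TGF-β1) for 8 h or for 24 h, at a dose of 5 ng/ml. All P2 cells shared the passages, low-serum medium and 3 days in culture, so a TGF-β1 comparison holds these constant. P0 cells were taken fresh from the tissue, with neither passage nor plating. P2 therefore differs from P0 in passage, substrate, serum and time at once, and these cannot be told apart. The labels call the arrays of a group biological replicates but do not say whether each came from its own animal, so p-values measure the spread between these samples.

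Interleukins are secreted signals that mostly pass between leukocytes, and many are read by paired receptor chains coupled to Janus kinases (JAKs) and STAT transcription factors. IL1 family members act through Toll-like adaptors to nuclear factor kappa B (NF-kB). TNF family ligands bind trimeric receptors, some with a death domain, that recruit TRAF or FADD adaptors and can lead to NF-kB activity or to cell death. Fibroblast-like cells carry many of the receptors, and macrophages are a known source of several of the ligands.

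Array medians lay between log2 5.87 and 5.94, and the number of arrays limits the precision. The 95th percentile of 64 reporter control probe sets, log2 4.58, was used as a control level: where 1 group mean lay under it, a fold is given as a lower bound, and where both did, none is given. Of the fibroblast markers, 10 of 12 were measured and none lay under the control level in any group. Between untreated P2 and P0 cells 6 of the 10 were lower and 1 higher: S100A4, a calcium-binding protein, by 5.10, while FBLN1, THY1 and DCN differed by −2.95, −1.89 and −1.64. VIM, the intermediate filament of mesenchymal cells, averaged 15.57 in untreated P2 and 15.62 in P0 cells and was not called. Macrophage markers were present in both: the mean level of 13 of them lay between 6.24 and 6.69 in untreated P2 arrays, against 8.81 to 9.35 in P0 arrays. The 3 P2 arrays numbered 3 stood apart in endothelial markers, with a 15-gene mean of 5.53, 5.59 and 5.38 in the untreated, 8 h and 24 h arrays, where the other P2 arrays lay between 6.67 and 7.23. The P0 arrays lay between 7.05 and 7.29. Counts without these 3 arrays are given beside each comparison.

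In cultured P2 cells most interleukin and TNF family transcripts were lower than in fresh P0 cells. With limma and Benjamini-Hochberg adjustment over all 17638 probe sets at 0.05, 18 of the 30 members fell and 6 rose, while 6 did not pass. Culture changed most of the array, so this reads against a background in which 59.4% of all probe sets were called, 25.8% lower and 33.6% higher. Of the members 80.0% were called. The median log2 difference was −0.77 over the members and 0.07 over all probe sets. Of the 15 ligand probe sets 10 fell and 1 rose. IL10 and 1 probe set of TNFSF13 passed the filter through the 3 P0 arrays and 1 P2 array each, so their being higher in P0 is tied to their selection. Without them 16 of 28 members fell and 6 rose. Both are ligand sets among the 10 that fell, and the median, the 80.0% and the non-overlap count include them. Receptors were mixed, with 8 of 14 probe sets lower and 5 higher. The groups did not overlap for 23 members (76.7%), all of them called, against 65.1% of all probe sets. Without the 3 P2 arrays numbered 3, limma called 18 members lower and 7 higher, and 10245 of all 17638 probe sets.

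Among the ligands IL1A and IL10 had the widest gaps. IL1A, an alarm cytokine of the IL1 family, has a pair of probe sets, numbered here, as for other genes, in the order of their names on the array. Set 2 read 5.79, 5.76 and 4.47 in untreated P2 cells, 6.05, 6.15 and 4.69 after 8 h of TGF-β1, and 5.48, 6.31 and 4.57 after 24 h, against 10.30, 10.71 and 10.23 in P0 cells. Every P0 array stood far above every P2 array, and in each P2 group the array numbered 3 was lowest. The difference between untreated P2 and P0 was −5.07 ± 0.49 on the log2 scale (SE), 33.6-fold lower (adjusted p = 2.84e-06). Set 1 read 6.13, 6.07 and 4.75 in untreated P2 cells, 6.57, 6.14 and 4.97 at 8 h, and 6.01, 6.41 and 4.10 at 24 h, against 10.19, 10.72 and 10.34 in P0 cells. On both sets the array numbered 3 was the lowest of each P2 group, and set 1 differed by −4.76 ± 0.58 between untreated P2 and P0 (adjusted p = 1.86e-05).

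IL10, the main anti-inflammatory interleukin, read 3.65, 4.29 and 3.65 in untreated P2 cells, 3.76, 3.48 and 3.43 at 8 h, and 3.39, 3.44 and 3.19 at 24 h, against 8.78, 9.18 and 8.71 in P0 cells. All 9 P2 arrays were under the control level, so IL10 was at least 19.8-fold lower in untreated P2 than in P0 cells (adjusted p = 1.44e-09). IL10 passed the filter through its 3 P0 arrays and 1 P2 array, so the direction of this difference is tied to its selection. Macrophage markers moved with both ligands: 12 of 13 measured were lower in untreated P2 than in P0 cells and none higher, and no group mean lay under the control level in either group. CD163, a scavenger receptor of macrophages, averaged 5.41 against 10.95, and CD74, the MHC class II invariant chain, 5.11 against 9.29. Their part in the ligand differences was not tested. In bulk RNA of this kind, fewer cells of a type and less RNA per cell cannot be told apart.

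IL15, which sustains natural killer and memory T cells, read 5.37, 5.51 and 5.39 in untreated P2 cells, 5.17, 4.67 and 4.52 at 8 h, and 3.77, 4.89 and 4.44 at 24 h, against 7.13, 7.07 and 6.96 in P0 cells. Untreated P2 arrays lay under every P0 array and above every treated array, and they differed from P0 by −1.63 ± 0.24 (adjusted p = 8.87e-05). IL16, a chemoattractant that binds CD4, read 6.35, 5.94 and 6.90 in untreated P2 cells, 6.03, 5.51 and 6.21 at 8 h, and 6.26, 5.53 and 6.59 at 24 h, against 7.97, 7.93 and 7.90 in P0 cells. The P2 groups overlapped one another and all lay under P0, with a difference of −1.53 ± 0.29 for untreated P2 (adjusted p = 0.000573).

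Smaller falls were found in IL18, an IL1 family cytokine stored as a precursor, and in IL34, the alternative ligand of the CSF1 receptor on macrophages. IL18 differed by −0.71 ± 0.12 between untreated P2 and P0 cells (adjusted p = 0.000253) and IL34 by −0.75 ± 0.20 (adjusted p = 0.00644). TNFSF13 (APRIL), a B cell survival ligand, fell on its set 2 by 0.92 ± 0.17 (adjusted p = 0.000546). Its other set was also called lower (adjusted p = 0.0123) with both means under the control level, and missed the threshold without P0 replicate 1 or 2 (adjusted p from 0.0511 to 0.0569). That set, like IL10, passed the filter through 3 P0 arrays and 1 P2 array.

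The 3 probe sets of IL17B, an IL17 family cytokine, disagreed. Set 3 read 4.38, 4.26 and 4.66 in untreated P2 cells, 4.44, 4.29 and 5.40 at 8 h, and 4.77, 3.98 and 4.65 at 24 h, against 4.95, 6.01 and 5.58 in P0 cells. Untreated P2 did not overlap P0 and was at least 1.90-fold lower (adjusted p = 0.0131), but the call was lost without P0 replicate 2 (adjusted p = 0.0631). Sets 1 and 2 did not pass (adjusted p = 0.469 and 0.818), and set 2 held the same value of 4.80 in 8 of 12 arrays.

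IL13, a type 2 cytokine, was the only ligand called higher (adjusted p = 0.0333), with both means under the control level and overlapping groups. Its arrays read 4.47, 4.61 and 4.19 in untreated P2 cells and 4.21, 4.12 and 3.49 in P0 cells, and the call was lost without untreated replicate 1 or 2 or P0 replicate 3 (adjusted p from 0.0836 to 0.136). TNFSF10 (TRAIL), which can trigger apoptosis, averaged higher in untreated P2 cells by 0.53 ± 0.28, and TNFSF4 (OX40 ligand), a T cell costimulator, by 0.36 ± 0.18. Neither passed the test (adjusted p = 0.117 and 0.112), though TNFSF4 did without P0 replicate 1 (0.53, adjusted p = 0.0269).

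**Figure D1:**
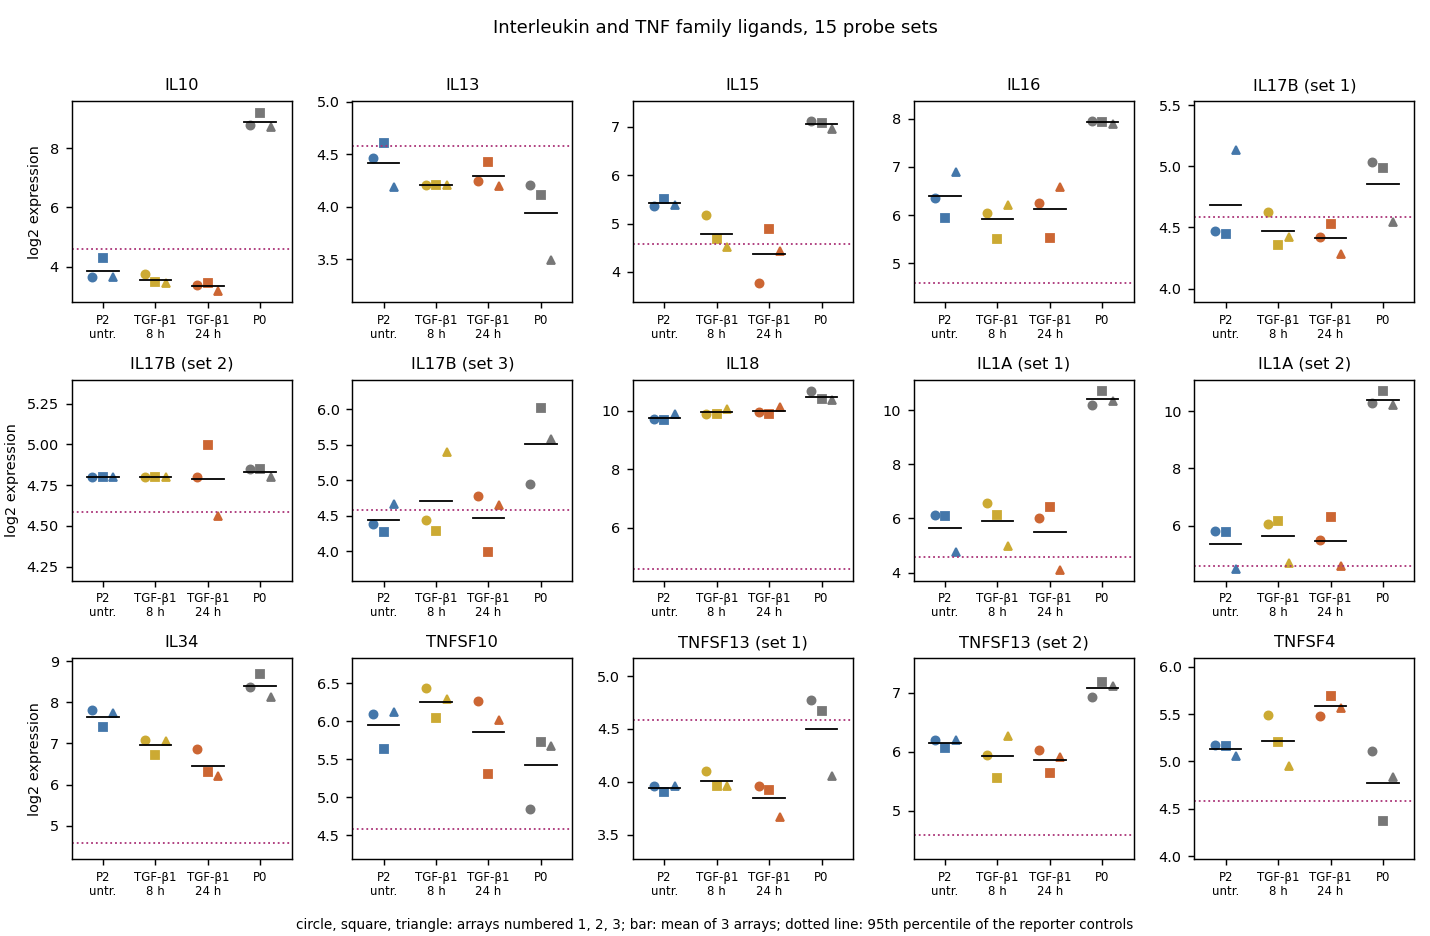
Log2 expression (y axis, a separate scale in each panel) of the 15 ligand probe sets in untreated P2, TGF-β1 8 h, TGF-β1 24 h and P0 cells; points are arrays, bars the means of 3 arrays, and the dotted line the control level of 4.58. IL10 and both IL1A sets lie at or under 6.57 in every P2 array, against 8.71 to 10.72 in P0 arrays. IL10 passed the filter through its 3 P0 arrays and 1 P2 array.

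The receptor with the widest rise was IL27RA, the alpha chain of the IL27 receptor. It read 10.51, 10.54 and 10.65 in untreated P2 cells, 10.06, 9.83 and 9.98 at 8 h, and 10.28, 10.13 and 10.45 at 24 h, against 8.54, 7.85 and 8.97 in P0 cells. Every P2 array exceeded every P0 array, and untreated P2 was higher by 2.11 ± 0.22, or 4.32-fold (adjusted p = 5.01e-06). It was the only member that rose at least 2-fold. IL13RA1, which pairs with IL4R to bind IL13, rose by 0.88 ± 0.20 (adjusted p = 0.00230), and IL1R1, the signalling receptor of IL1A, by 0.70 ± 0.19 (adjusted p = 0.00665).

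TNFRSF12A (FN14), the receptor of the TNF family ligand TWEAK, rose on both probe sets, set 1 by 0.67 ± 0.12 (adjusted p = 0.000465) and set 2 by 0.56 ± 0.17 (adjusted p = 0.0143). Set 2 missed the threshold without untreated replicate 1 or P0 replicate 2 (adjusted p from 0.0617 to 0.0658). No gene had sets called in opposite directions.

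The other 8 called receptor probe sets fell, led by IL4R, the chain shared by the IL4 and IL13 receptors. Its set 2 read 9.92, 9.89 and 9.62 in untreated P2 cells, 8.80, 8.83 and 8.63 at 8 h, and 9.35, 9.06 and 9.22 at 24 h, against 11.99, 11.66 and 11.81 in P0 cells. No pair of groups overlapped on this set. Untreated P2 was lower than P0 by 4.03-fold (log2 difference −2.01 ± 0.13, adjusted p = 1.06e-07), and set 1 differed by −0.97 ± 0.11 (adjusted p = 1.18e-05).

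TNFRSF21 (death receptor 6), a death-domain receptor, read 7.38, 8.28 and 6.47 in untreated P2 cells, 8.09, 8.39 and 8.03 at 8 h, and 8.66, 8.69 and 8.31 at 24 h, against 9.26, 9.35 and 9.22 in P0 cells. P0 arrays were tightly grouped above all P2 arrays, whereas untreated P2 arrays spanned the widest range. Untreated P2 differed from P0 by −1.91 ± 0.33 (adjusted p = 0.000341). IL2RG, the common gamma chain of the IL2, IL4, IL7 and IL15 receptors, read 4.08, 4.30 and 4.42 in untreated P2 cells, 4.15, 4.51 and 4.56 at 8 h, and 4.05, 4.22 and 4.53 at 24 h, against 6.09, 5.92 and 5.55 in P0 cells. All P2 arrays were under the control level, so IL2RG was at least 2.41-fold lower in untreated P2 cells (adjusted p = 9.45e-06). Of the lymphocyte markers 3 of 18 were measured, 2 of them (CD3G and PRF1) under the control level in every group, while CD247, a T cell receptor chain, averaged 6.28 in untreated P2 and 5.04 in P0 cells. Their part in the IL2RG difference was not tested.

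IL11RA, the alpha chain of the IL11 receptor, read 8.95, 8.49 and 9.24 in untreated P2 cells, 8.65, 8.42 and 9.07 at 8 h, and 8.78, 8.50 and 9.05 at 24 h, against 10.07, 10.14 and 10.19 in P0 cells. TNFRSF1A (TNF receptor 1), the broadly expressed TNF receptor with a death domain, read 9.13, 8.94 and 9.12 in untreated P2 cells, 8.95, 8.76 and 8.81 at 8 h, and 9.04, 8.65 and 9.02 at 24 h, against 10.18, 10.40 and 10.29 in P0 cells. In both, the P2 groups overlapped one another and lay wholly under P0. IL11RA differed by −1.24 ± 0.21 (adjusted p = 0.000292) and TNFRSF1A by −1.23 ± 0.13 (adjusted p = 4.96e-06). TNFRSF1B (TNF receptor 2), which lacks a death domain, differed by −0.80 ± 0.18 (adjusted p = 0.00205), and IL10RB, a chain shared by the IL10 and IL22 receptors, by −0.83 ± 0.11 (adjusted p = 2.87e-05). IL12RB2, a chain of the IL12 receptor, stayed between 4.65 and 5.03 in all 12 arrays and was not called. It held the same value of 4.80 in 5 of the 12 arrays, near the control level of 4.58.

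**Figure D2:**
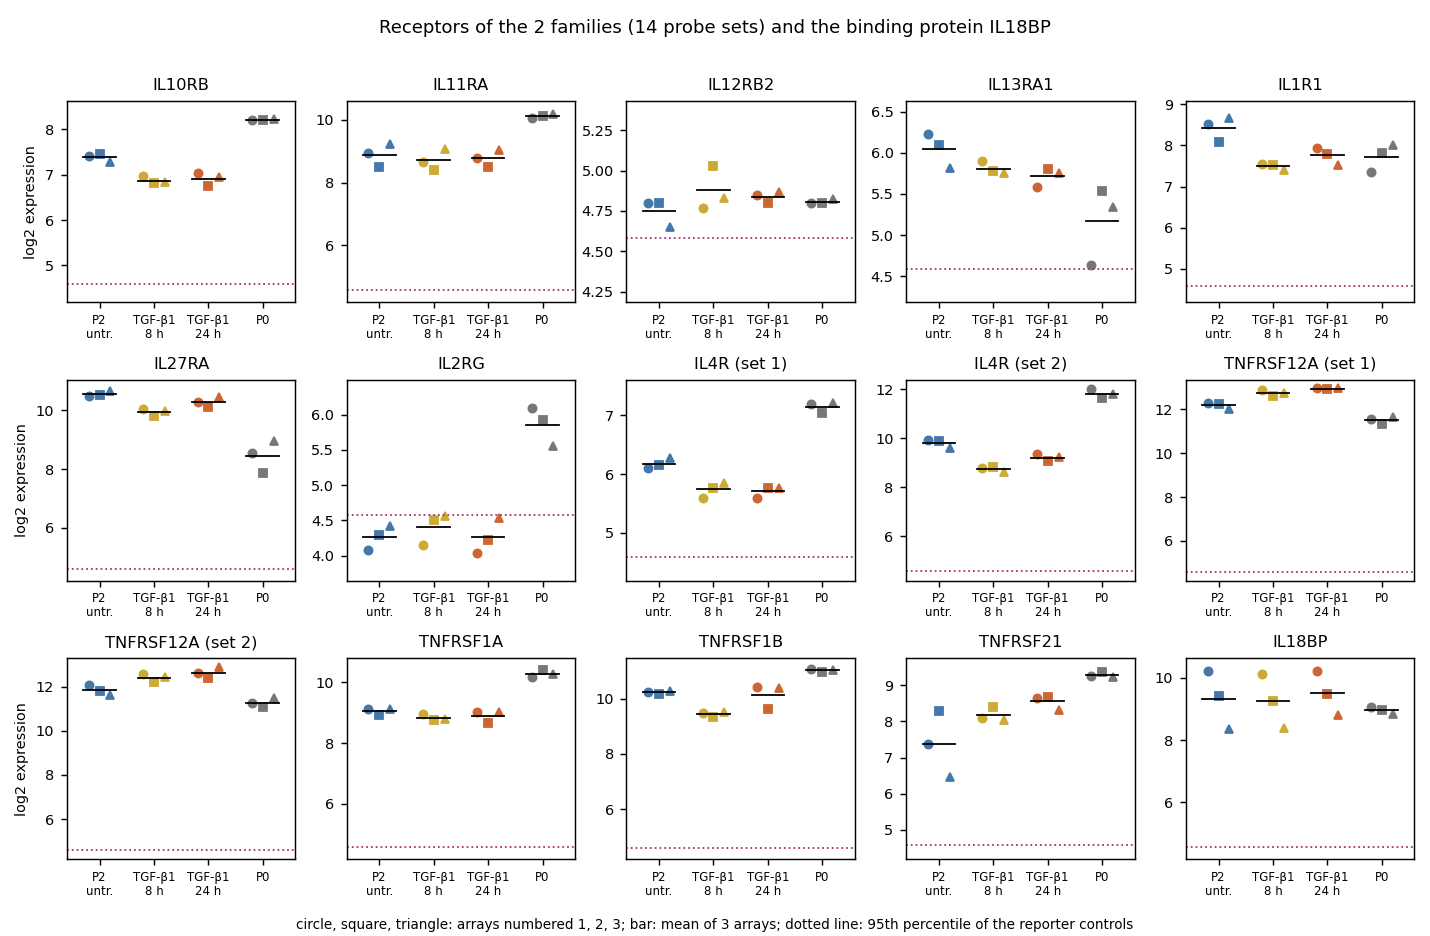
Log2 expression (y axis, a separate scale in each panel) of the 14 receptor probe sets and IL18BP in untreated P2, TGF-β1 8 h, TGF-β1 24 h and P0 cells, with points for arrays and bars for the means of 3. IL27RA lies between 9.83 and 10.65 in P2 arrays, above all P0 arrays, while IL4R, TNFRSF1A and IL11RA lie lower in every P2 array than in P0.

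After 8 h of TGF-β1 the unblocked fit called receptors, and the fit with the replicate block also called the ligands IL34 and IL16 lower. Unblocked, of the 30 members 5 were called lower and 1 higher than in untreated P2 cells, all 6 on receptor probe sets. Of all probe sets 5.07% were called, 2.53% in each direction. The median log2 difference was −0.20 over the members and −0.01 over all probe sets, and 11 members (36.7%) did not overlap between the groups, against 25.5% of all probe sets. The replicate numbers pair the P2 arrays, and with the number as a block limma called 8 lower and 2 higher, against 6.77% and 5.70% of all probe sets (12.5% in all).

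IL4R fell most, with set 2 lower in every 8 h array than in every untreated array, by 1.06 ± 0.13 (adjusted p = 0.00159). Set 1 read 5.59, 5.77 and 5.85 at 8 h against 6.10, 6.16 and 6.28 in untreated cells, a difference of −0.44 ± 0.11 (adjusted p = 0.0433). IL1R1 read 7.55, 7.52 and 7.41 at 8 h against 8.53, 8.08 and 8.67 in untreated cells, without overlap (−0.93 ± 0.19, adjusted p = 0.0167). Its P0 arrays, at 7.37, 7.81 and 8.00, overlapped those of the 8 h cells.

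TNFRSF1B read 9.47, 9.32 and 9.51 at 8 h against 10.23, 10.16 and 10.28 in untreated cells, and IL10RB read 6.96, 6.81 and 6.83 against 7.42, 7.46 and 7.27. Both were lower in all 3 treated arrays, by 0.79 ± 0.18 for TNFRSF1B (adjusted p = 0.0255) and 0.52 ± 0.11 for IL10RB (adjusted p = 0.0180). TNFRSF12A set 1 was the 1 member called higher (0.56 ± 0.12, adjusted p = 0.0214). It read 12.89, 12.63 and 12.73 in 8 h cells against 12.29, 12.24 and 12.03 in untreated cells. Set 2 of the gene was higher by 0.57 ± 0.17 without overlap but was not called (adjusted p = 0.0854).

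Only the IL4R set 2 call at 8 h held in all 6 fits that each left out 1 array. Without the P2 arrays numbered 3 it was the 1 member call left, where 265 of all 17638 probe sets were called. IL4R set 1 and TNFRSF1B missed the threshold whichever array was left out, with adjusted p from 0.0668 to 0.176 and from 0.0535 to 0.0941. These fits held no replicate block. With the block on all P2 arrays limma called both (adjusted p = 0.0129 and 0.0156). IL1R1 missed it without untreated replicate 1 or 3 or 8 h replicate 1 or 3 (0.0523 to 0.0727), IL10RB without untreated replicate 1 or 2 or 8 h replicate 2 or 3 (0.0589 to 0.0716), and TNFRSF12A set 1 without untreated replicate 3 or 8 h replicate 1 or 3 (0.0647 to 0.0952). The block added IL27RA (−0.61, adjusted p = 0.00721, against 0.156 unblocked), IL34 (−0.70, 0.0157 against 0.0719), IL16 (−0.48, 0.0263 against 0.445) and TNFRSF12A set 2 (0.57, 0.0397 against 0.0854).

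After 24 h of TGF-β1, 5 members of 4 genes were lower and 3 members of 2 genes higher than in untreated P2 cells, against 4.22% and 4.27% of all probe sets (8.49% in all). The lower genes were the ligands IL34 and IL15 and the receptors IL4R and IL10RB, and the higher genes were TNFRSF12A and TNFRSF21. The median log2 difference was −0.12 over the members and 0.01 over all probe sets. The groups did not overlap for 15 of the 30 members, against 25.3% of all probe sets. With the replicate block limma called 6 lower and 4 higher, against 10.2% and 9.77% of all probe sets (20.0% in all). The 8 h and 24 h comparisons share the same untreated arrays.

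IL34 read 6.87, 6.30 and 6.21 at 24 h against 7.80, 7.39 and 7.74 in untreated cells. Its 8 h arrays, at 7.08, 6.73 and 7.05, lay under the untreated ones and overlapped those at 24 h. The 24 h arrays did not overlap the untreated ones and were 2.28-fold lower (−1.19 ± 0.20, adjusted p = 0.00399). IL15 averaged under the control level at 24 h and was at least 1.79-fold lower than in untreated cells (adjusted p = 0.0188). CD14, a monocyte marker, was the 1 macrophage marker of 13 called in either TGF-β1 comparison, lower by 0.59 at 8 h (adjusted p = 0.0485) and by 0.73 at 24 h (adjusted p = 0.0128). The mean level of the 13 lay between 5.90 and 6.27 in 24 h arrays and between 6.24 and 6.69 in untreated arrays, and its part in the IL34 and IL15 differences was not tested.

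TNFRSF12A set 1 read 12.96, 12.92 and 12.96 at 24 h and rose by 0.76 ± 0.12 over untreated cells (adjusted p = 0.00322). Set 2 read 12.62, 12.38 and 12.89 at 24 h against 12.07, 11.80 and 11.62 in untreated cells (0.80 ± 0.17, adjusted p = 0.0142). Both sets lay without overlap above the untreated arrays. TNFRSF21 was higher at 24 h in all 3 arrays by 1.18 ± 0.33 (2.26-fold, adjusted p = 0.0497), with the array numbered 3 lowest in both groups. IL4R stayed lower, by 0.60 ± 0.13 on set 2 (adjusted p = 0.0150) and 0.47 ± 0.11 on set 1 (adjusted p = 0.0232), as did IL10RB, by 0.47 ± 0.11 with 7.03, 6.76 and 6.96 at 24 h (adjusted p = 0.0187). On IL4R set 1 the values 5.59, 5.77 and 5.77 at 24 h lay under all 3 untreated arrays. This set held the same value of 5.77 in 8 h replicate 2 and in 24 h replicates 2 and 3. It also held the same 5.59 in replicate 1 at 8 h and at 24 h.

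The calls of IL34 and TNFRSF12A set 1 at 24 h held in all 6 unblocked fits that each left out 1 array. TNFRSF21 lost its call in 5 of them (adjusted p from 0.0656 to 0.128), in all but the one without untreated replicate 2, and its difference fell to 0.72 without untreated replicate 3. Quantile normalization (adjusted p = 0.0589), no filter (0.0696), values raised to the control level (0.0887) and the 2 groups alone (0.178) also lost it. With the replicate block limma called TNFRSF21 (adjusted p = 0.0201). IL15 lost its call without any 1 of the untreated arrays (0.0513 to 0.0564), IL10RB without untreated replicate 1 or 2 or 24 h replicate 2 (0.0593 to 0.0656), and TNFRSF12A set 2 without untreated replicate 3 (0.0641). IL4R set 1 lost it without untreated replicate 2 or 3 or 24 h replicate 1 (0.0521 to 0.0971), and IL4R set 2 without untreated replicate 1 or 24 h replicate 2 (0.0516 to 0.0622). Without the P2 arrays numbered 3, TNFRSF12A set 1 and IL4R set 2 were still called, and IL34 was lower by 1.02 (adjusted p = 0.0580). That fit called 762 of all 17638 probe sets. The block added IL1R1 (−0.67, adjusted p = 0.0251, against an unblocked value just over the threshold) and TNFSF4 (0.45, 0.0408 against 0.160).

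**Figure D3:**
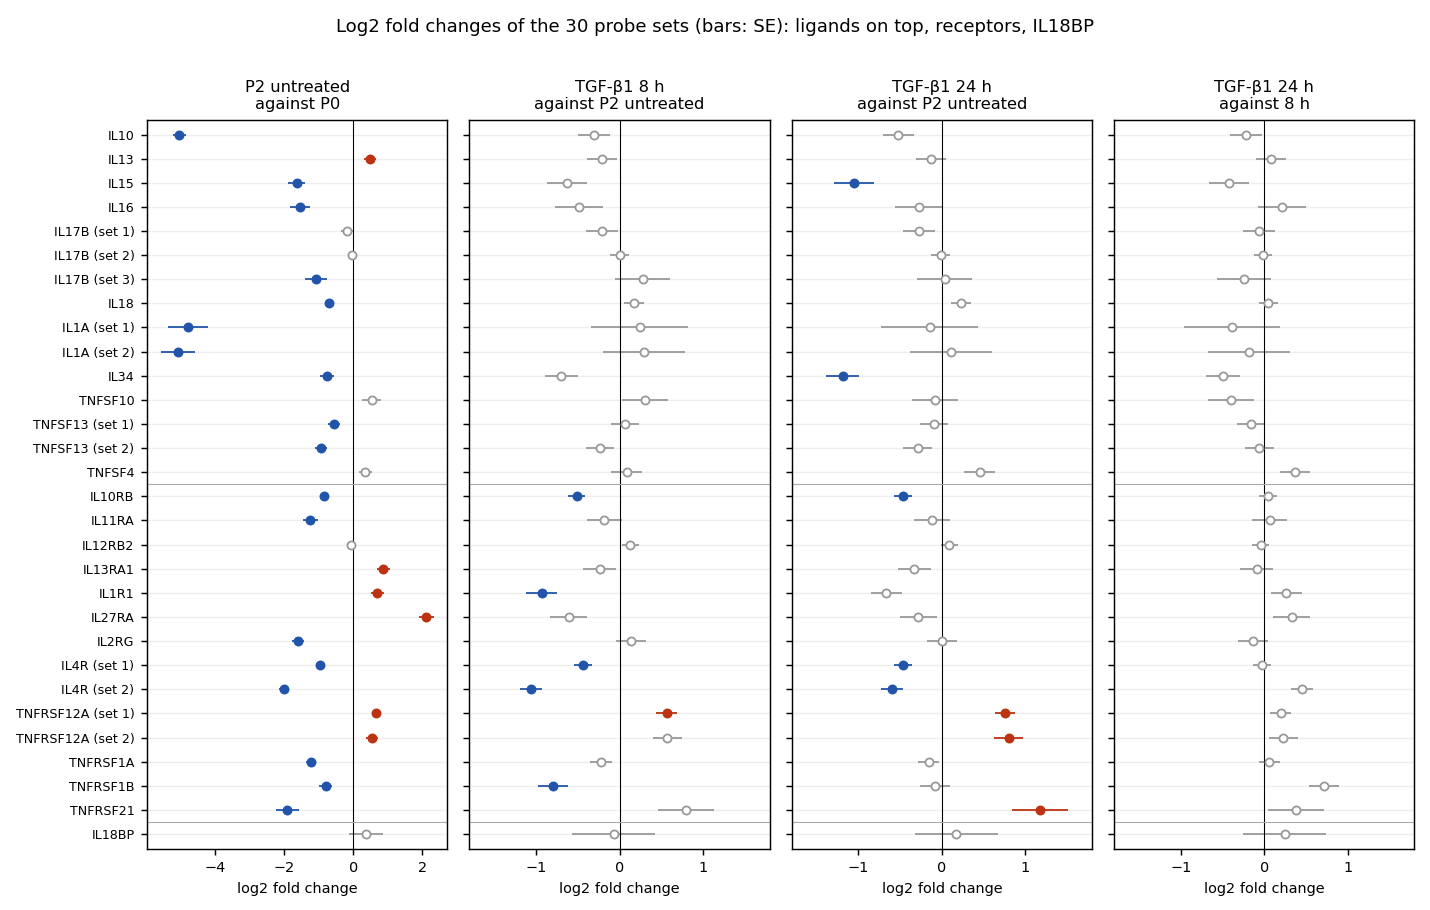
Log2 differences of the 30 member probe sets with their standard errors (x axis) in the 4 comparisons, with a wider axis for untreated P2 against P0; filled points passed the adjusted p threshold (red higher, blue lower) and open points did not. The culture differences reach −5.07, while those of TGF-β1 against untreated P2 lie between −1.19 and 1.18.

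Between 24 h and 8 h of TGF-β1 no member passed limma's test, where 0.232% of all probe sets were called, 0.142% higher and 0.0907% lower. The replicate block also called none, where it called 2.44% of all probe sets, 1.12% higher and 1.32% lower. Unblocked limma without the P2 arrays numbered 3 called none either, where it called 12 of all 17638 probe sets. At an unadjusted p under 0.05 there were 3 members, or 7 with the block. The share of all probe sets under that unadjusted threshold was not counted, so neither number can be read as an excess. The smallest p-values belonged to TNFRSF1B and IL4R set 2. TNFRSF1B read 10.41, 9.63 and 10.39 at 24 h against 9.47, 9.32 and 9.51 at 8 h (0.71 ± 0.18, adjusted p = 0.184). The groups did not overlap, and without 24 h replicate 2 the difference was 0.97 (adjusted p = 0.00964). Relative to untreated cells TNFRSF1B differed by −0.08 ± 0.18 at 24 h (adjusted p = 0.853). IL4R set 2 was higher at 24 h than at 8 h in all 3 arrays by 0.45 ± 0.13 (adjusted p = 0.264).

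IL18BP, the soluble inhibitor of IL18, passed in no comparison and spread by replicate number within the P2 groups. It read 10.22, 9.39 and 8.35 in untreated P2 cells, 10.10, 9.26 and 8.39 at 8 h, and 10.21, 9.49 and 8.79 at 24 h, against 9.05, 8.97 and 8.83 in P0 cells. In each P2 group the array numbered 1 was highest and the array numbered 3 lowest, whereas the P0 arrays lay close together. Untreated P2 differed from P0 by 0.37 ± 0.50 (adjusted p = 0.546), and by 0.86 without the P2 arrays numbered 3 (adjusted p = 0.0423). The mean deviation from the P2 group means spanned 1.67 between numbers for IL18BP, 1.63 and 1.50 for the IL1A sets, 0.91 for IL16 and 0.85 for TNFRSF21. The endothelial marker mean was also lowest in the arrays numbered 3, and its part in these spreads was not tested.

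**Figure D4:**
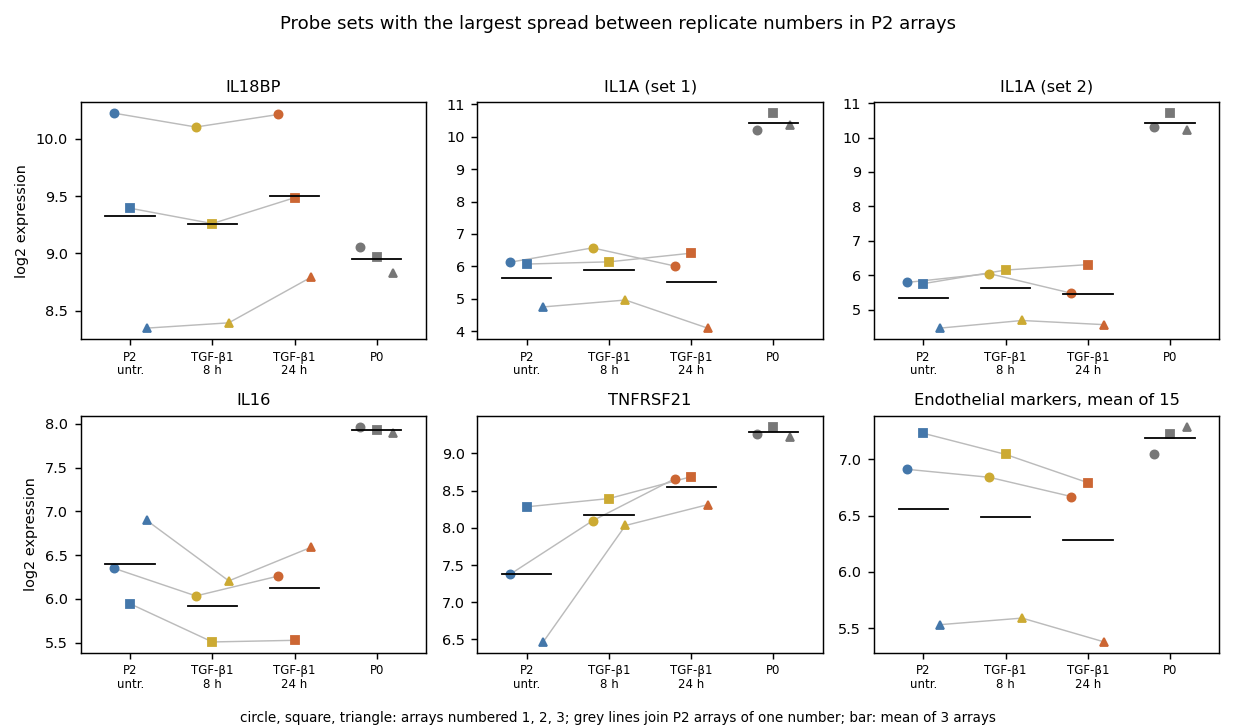
Log2 expression (y axis) in each array of the 5 probe sets with the widest spread by replicate number, and of the mean of 15 endothelial markers; grey lines join P2 arrays of one number and bars are means of 3 arrays. IL18BP and IL1A lie lowest in the array numbered 3 in all 3 P2 groups, and IL16 highest.

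Genes that act with these ligands and receptors were counted from 6 lists. Between untreated P2 and P0 cells 11 of their 43 measured genes were called higher and 20 lower (72.1%), where 33.6% of all probe sets were higher and 25.8% lower (59.4%). Of the TNF receptor adaptors 5 were higher and 2 lower of 9 measured, with a median of 0.72. FADD, which links death receptors to caspases, rose by 1.55 ± 0.13 (adjusted p = 1.00e-06) and CASP8, the caspase it recruits, by 1.42 ± 0.21 (adjusted p = 0.000102). TRAF5, a signalling adaptor, rose by 1.38 ± 0.27 (adjusted p = 0.000726). CFLAR, an inhibitor of caspase 8, fell by 1.19 ± 0.11 (adjusted p = 2.07e-06).

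Of the JAK-STAT and SOCS genes 8 were lower and 2 higher of 15 (66.7%, against 59.4% of all probe sets). SOCS3, a feedback inhibitor of cytokine receptors, was at least 2.15-fold lower (adjusted p = 9.59e-08), and its relative SOCS1 differed by −2.08 ± 0.12 (adjusted p = 4.95e-08). STAT2, which carries interferon signals, differed by −1.57 ± 0.14 (adjusted p = 1.57e-06) and JAK2 by −1.41 ± 0.17 (adjusted p = 1.77e-05). Of the NF-kB core 3 of 14 genes were measured. The inhibitors NFKBIA and NFKBIB differed by −3.91 ± 0.17 (adjusted p = 5.23e-09) and −1.99 ± 0.12 (adjusted p = 4.72e-08), and IKBKG, a kinase subunit, rose by 0.94 ± 0.22 (adjusted p = 0.00291).

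The IL1 and Toll receptor adaptors gave 3 lower and 2 higher of 6, among them PELI1, an IRAK-binding ubiquitin ligase, at −1.86 ± 0.11 (adjusted p = 7.11e-08) and ECSIT, a Toll pathway adaptor, at 1.13 ± 0.11 (adjusted p = 2.51e-06). Interleukin system genes under other symbols gave 3 lower and 1 higher of 5, led by IFNGR1, the ligand-binding interferon gamma receptor chain (−1.90 ± 0.12, adjusted p = 7.76e-08). TNF superfamily genes under other symbols gave 2 lower and 0 higher of 5: TNF, at least 64.8-fold lower (adjusted p = 1.19e-09), and CD40, a costimulatory receptor, at −0.81 ± 0.20 (adjusted p = 0.00431).

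Of the 43 measured genes of the 6 lists 4 were called at 8 h and 4 at 24 h (9.30% each time), against 5.07% and 8.49% of all probe sets. With the replicate block there were 6 and 10 calls among the 43, against 12.5% and 20.0% of all probe sets. NFKBIA was lower by 0.90 ± 0.17 at 8 h (adjusted p = 0.0131) and by 1.02 ± 0.17 at 24 h (adjusted p = 0.00415), and CD40 higher by 0.80 ± 0.20 (adjusted p = 0.0417) and 0.90 ± 0.20 (adjusted p = 0.0177). At 8 h the other calls were CRLF3, a cytokine receptor-like gene, at 1.01 ± 0.19 (adjusted p = 0.0106) and STAT2 at −0.56 ± 0.14 (adjusted p = 0.0432). At 24 h they were SIGIRR, an inhibitory IL1 receptor relative, at −0.59 ± 0.16 (adjusted p = 0.0429) and PELI1 at 0.49 ± 0.11 (adjusted p = 0.0212). No TNF receptor adaptor was called by unblocked limma at either time, with 1 of 9 at an unadjusted p under 0.05 each time. Between 24 h and 8 h no gene of the 6 lists was called without the block, and with it CRLF3 was (−0.46 ± 0.09, adjusted p = 0.0402). Unblocked, there were 2 of 5 interleukin system genes and 1 each of the TNF receptor adaptors, the IL1 and Toll adaptors and the JAK-STAT genes at an unadjusted p under 0.05. For these list counts, too, the share of all probe sets under the unadjusted threshold was not counted.

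Several members lay near the control level. In 2 probe sets, IL13 and TNFSF13 set 1, the mean lay under the control level in all 4 groups, and in 7 in at least 1 group. In total 25 passed the filter in all 12 arrays. Just inside the filter were IL10 and TNFSF13 set 1, each over log2 4 in 4 arrays (all 3 P0 arrays and 1 P2 array), and just outside was IL2, with 1 such array at 4.38. The 14 probe sets that did not pass belonged to IL1R1 (1 set) and to 13 genes with no other set: the ligands IL2, IL4, IL5, IL7, IL12A, IL12B, IL17A and IL21, and the receptors IL2RA, IL6R, IL7R, IL18R1 and TNFRSF17.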

How the data were processed

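The authors' deposited values are log2 expression per Affymetrix probe set, and GCRMA is named per the submitters' processing notes, with no version or order of steps. No source used here names scan batches or a genome build. Probe sets were named from the platform annotation, and all 30 member symbols matched the RefSeq gene table. Of 23999 probe sets, 17638 (73.7%) passed log2 4 in at least 3 arrays. The 12 arrays were fitted as 4 group means (lmFit and eBayes of limma 3.58.1, under R 4.3.3, 8 residual degrees of freedom), two-sided, adjusted by Benjamini-Hochberg over 17638 probe sets per comparison, called at adjusted p under 0.05. The procedure was tested on simulated data with independent noise in each array, so that test does not cover the pairing of the P2 arrays.

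Same-numbered P2 arrays deviated together from their group means (r from 0.348 to 0.679 over 9 pairs, at most 0.0796 between other numbers), and not with P0 (−0.0916 to 0.0158), so a block was fitted within the 9 P2 arrays. Values per array are given for the called, non-overlapping members of largest change (12 for culture, up to 8 per TGF-β1 comparison, otherwise the 2 of smallest p). Up to 4 called genes are named per list. List genes were taken on their brightest probe set with 1 symbol. Of the 6 marker lists, muscle gave 3 of 5 higher in untreated P2 than in P0 cells, endothelial 3 of 15 lower, fibroblast 6 of 10 lower and 1 higher, and the mast cell list 1 of 1 higher (KIT). Members and lists were chosen with earlier results of these data known.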

Additional observations from a re-analysis of the deposited data

How the results depend on the processing

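The counts for untreated P2 against P0 stayed within 1.5 times their values under every alternative run, and no call changed direction in any. Counts for TGF-β1 were less stable, for the members and over all probe sets alike. At 8 h, where 1 member was higher and 5 lower, 2 were higher with the replicate block on all 12 arrays and with the block on the P2 arrays only, which also gave 8 lower. A fit of the 2 groups alone gave 0 higher at 8 h, and at 24 h 1 higher and 1 lower in place of 3 and 5. Leaving out the P2 arrays numbered 3 was an alternative chosen after seeing the data. It gave 0 higher and 1 lower at 8 h, and 1 higher and 1 lower at 24 h. Of all 17638 probe sets it called 265 at 8 h and 762 at 24 h. That setting and the 2-group fit hold fewer samples. Leaving out 1 array at a time, without the block, gave 4 to 7 higher and 16 to 18 lower for culture. At 8 h it gave 0 to 2 higher and 1 to 2 lower, and at 24 h 1 to 3 and 2 to 5. For 24 h against 8 h it gave 0 to 1 higher and 0 lower. The same fits called 9577 to 9919 of all 17638 probe sets for culture and 364 to 702 at 8 h. At 24 h they called 800 to 1347, and for 24 h against 8 h 4 to 44. Over all probe sets the block on the P2 arrays called 2200 at 8 h, 3519 at 24 h and 430 between them, against 894, 1498 and 41, and the 2-group fits 519, 631 and 0. Of 1134 member values under 10 settings other than leaving out 1 array, 29 lost and 13 gained a call. Between untreated P2 and P0, IL10, IL2RG and IL17B set 3 carry only a lower bound of the fold, as 1 mean lay under the control level of log2 4.58. IL13 and TNFSF13 set 1, with both means under it, carry no fold.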

Other observations

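A pair of probe sets annotated to both IL3RA and TECR was left out of the members because each names more than 1 gene. The brighter set averaged log2 10.14 in untreated P2, 9.86 at 8 h and 9.83 at 24 h of TGF-β1, against 9.41 in P0 cells. The dimmer set averaged 4.79, 4.72 and 4.54 in the same P2 groups, against 5.14 in P0 cells. Which of the genes either set measures is not settled by the annotation.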
